A study of Mus musculus with 12 samples.

Results

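The regions described here are the strongest places on the mouse genome where the glucocorticoid receptor (GR) was detected only after dexamethasone (Dex). They were chosen from the authors' 11 peak lists, in which a region is the union of peaks that share at least 1 bp. A region was kept when it held a peak in all 3 libraries of cells given Dex and in all 3 given tumour necrosis factor (TNF) plus Dex, held none in any untreated or TNF-only library, and had a mean level of at least 100 over the 6 Dex libraries. The level is the normalized tag count, the number of sequenced tags in a peak per 20000000 tags of the library. The rule kept 256 of 47493 regions, which are called members below. They are 10.7% of the 2403 strictly Dex-dependent regions of any level and 68.1% of the 376 regions that reach a mean of 100 with a peak in all 6 Dex libraries.

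The series used chromatin immunoprecipitation of GR with sequencing in BWTG3, a line derived from a mouse hepatoma, after 24 h of starvation in a reduced-serum medium. DEX received 1 µM Dex (n = 3 libraries), TNFDEX received 1000 U/ml of recombinant TNF and, 1 h later, 1 µM Dex (n = 3), TNF received 1000 U/ml TNF alone (n = 2), and NI names neither agent (n = 3). The labels give 3 h as the total stimulation time. The replicates are called biological in the series' design text, all come from a single cell line, and the stated interest is how TNF affects binding of GR to DNA.

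GR is a nuclear receptor that sits in the cytoplasm bound to chaperones until a glucocorticoid such as Dex enters the cell. It then moves to the nucleus and binds as a dimer to glucocorticoid response elements, palindromes of 2 hexamers separated by 3 bases, or is held at DNA by other factors such as AP-1 and NF-kB. In liver it drives genes of gluconeogenesis, amino acid use and the circadian clock, together with feedback and anti-inflammatory genes. TNF activates NF-kB and AP-1 and is known to reduce glucocorticoid responses.

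Sequence was at hand only for promoter windows of RefSeq (GRCm38.p6, from 250 bp before to 50 bp after a gene's start), and 2 of the 243 members on chromosomes with such windows touched one, against 106 of 3832 regions called in all 6 Dex libraries. Both members are shown because they are the only ones whose bound DNA can be read here. They are given 5′ to 3′ on the plus strand, in lower case with motif matches in capitals. The member near the start of Gm6093 is chr13:33569428-33569606, of which the 140 bases up to 33569567 lie in the window, and the member near the start of Gm32287 is chr2:167777426-167777620, printed whole (195 bases).
Gm6093: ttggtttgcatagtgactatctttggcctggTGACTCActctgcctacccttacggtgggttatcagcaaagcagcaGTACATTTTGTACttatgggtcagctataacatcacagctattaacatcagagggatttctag
Gm32287: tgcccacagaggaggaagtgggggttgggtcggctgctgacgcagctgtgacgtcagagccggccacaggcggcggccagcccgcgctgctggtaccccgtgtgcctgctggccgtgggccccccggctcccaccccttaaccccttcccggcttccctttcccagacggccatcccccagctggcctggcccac

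In the Gm6093 sequence, the capitals mark GTACATTTTGTAC, a match to the GR element (GNACA, any 3 bases, TGTNC) centred 6 bp from the middle of the member, and TGACTCA, a match to the AP-1 motif TGANTCA centred 55 bp from it. The GR element was found on either strand in 0.475% of all 32851 promoter windows, in 14.3% (17 of 119) of windows touched by a region called in all 6 Dex libraries, and in 23.7% (14 of 59) of those touched by a strictly Dex-dependent region. The AP-1 motif was in 7.81%, 17.6% and 20.3% of the same windows. The printed sequence near Gm32287 held none of the 7 motifs searched, among which were the GR element and its inner part ACANNNTGT. The shares above count a motif anywhere in a whole window, whereas the members were read only over the printed bases. Counted over whole windows, of the 3 touched by a member 2 held the AP-1 motif, 1 the GR element and 1 the C/EBP motif TTGCNNAA. A match is a description of letters and not a measured binding site.

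Members stood far above the other regions in every Dex library, which is what the rule chose. Their mean level had a median of 145 (quartiles 117 and 211) and ran from 100.03 to 803, beside a median of 31.75 over the 4023 regions with a peak in all 6 libraries. A level of 200 was reached by 70 members, 300 by 34 and 500 by 11. The member median was 102, 130 and 192 in DEX 1 to 3 and 182, 93.1 and 191 in TNFDEX 1 to 3, and was 4.13 to 5.65 times that of the other 3767 regions in each library. Members were 1.13% to 2.96% of a library's nuclear peaks and held 9.77% to 18.5% of the tags in them. Between 251 and 255 of the 256 were among the 1000 strongest nuclear peaks of every Dex library. At the threshold, the last members inside lay nearest Slc47a2 (100.03), Mobp (100.2) and Ppp3r1 (100.4), and the first regions outside lay nearest Sys1, Adgrl3 and Ttc26 (99.55 each).

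Depth was 39228805 to 51141996 tags per library, and a median member was counted from 205 to 466 tags, a counting error of 4.63% to 6.98%. The libraries fell into 2 sets by the share of tags in mitochondrial peaks, which was 0.355% to 0.541% in NI 3, TNF 2, DEX 3, TNFDEX 2 and TNFDEX 3 and 0.00645% to 0.0348% in the other 6. The labels name no batch. The Spearman rank correlation of the 256 levels between Dex libraries was 0.731 to 0.953 within a set (6 pairs) and 0.536 to 0.619 across sets (9 pairs), given as a description over members chosen for high level. The comparison of treatments is therefore also given with the mitochondrial set as a term. Levels of single libraries are given as deposited. The factors later used to scale the libraries ran from 0.643 in TNFDEX 2 to 1.48 in TNFDEX 1. Orders of libraries, spreads and overlaps of groups read from deposited levels can therefore differ after scaling.

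The strongest member was chr9:48723703-48723882, inside Zbtb16, which encodes the zinc finger repressor PLZF, a classic glucocorticoid-induced gene. Its level was 524, 613 and 1176 in DEX 1 to 3 and 738, 610.5 and 1158 in TNFDEX 1 to 3. In these deposited values DEX 3 and TNFDEX 3, both with a high mitochondrial share, were the highest, and the groups overlapped. A second Zbtb16 member, chr9:48786874-48787058, had 306, 399 and 641 with Dex and 493, 276 and 532 with TNF plus Dex. The third, chr9:48737547-48737740, averaged 170.5, and the 3 span 63.4 kb of the gene.

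The densest group of members lay beside Fkbp5, which encodes a co-chaperone that binds GR complexes and restrains the receptor. Within 10.4 kb of chromosome 17, between 28512846 and 28523270, were 5 members, 26.7 to 36.9 kb from Fkbp5 and nearest to Armc12. The strongest of them, chr17:28518092-28518274, had 641, 759.6 and 680.2 in DEX 1 to 3 and 596, 354 and 699.8 in TNFDEX 1 to 3. In these deposited values TNFDEX 2 stood lowest and the other 5 libraries lay close together. TNFDEX 2 also had the lowest scaling factor, so this order is that of unscaled levels only. Next in strength, chr17:28512846-28513083 had 307, 395 and 806.5 with Dex and 637, 312 and 678 with TNF plus Dex, with a wider spread within both groups. The other 3 averaged 289, 214 and 204, and a sixth member inside Fkbp5, chr17:28420239-28420418, averaged 129.

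Other members of the top 15 lay by genes of varied function. The second strongest, chr15:88850581-88850760, 3.68 kb from Gm33049 in a locus with Creld2 and Pim3, had 633, 844 and 889 in DEX 1 to 3 and 853, 435 and 863 in TNFDEX 1 to 3. TNFDEX 2 lay apart below the rest in these deposited values only, and it had the lowest scaling factor. The member inside Cblb (chr16:52094751-52094929), which encodes a ubiquitin ligase that dampens receptor signalling, had 386, 418 and 781 with Dex and 576, 463 and 871 with TNF plus Dex. The member inside Hmcn2 and 9.70 kb from Ass1 (chr2:31460391-31460570) had 333, 438 and 927 with Dex and 437.5, 426 and 859 with TNF plus Dex. Ass1 encodes argininosuccinate synthase of the urea cycle. At this member DEX 3 and TNFDEX 3 were about level and stood above the other 4 in the deposited values, before scaling between libraries. Means of 555 (nearest Grhl2, at 39.8 kb), 529 (inside Nek7), 523 (nearest Slc45a1, at 33.0 kb), 515 (inside Foxp1), 511 (nearest Rab4a), 421 (nearest Eif3h), 418 (nearest Dhx8) and 400 (Zfp36, whose product degrades TNF mRNA) completed the 15. The Foxp1 member was among the 3 with the smallest spread within groups in the deposited values, with 498, 669 and 504 in DEX 1 to 3 and 539.6, 345 and 533 in TNFDEX 1 to 3.

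**Figure D1:**
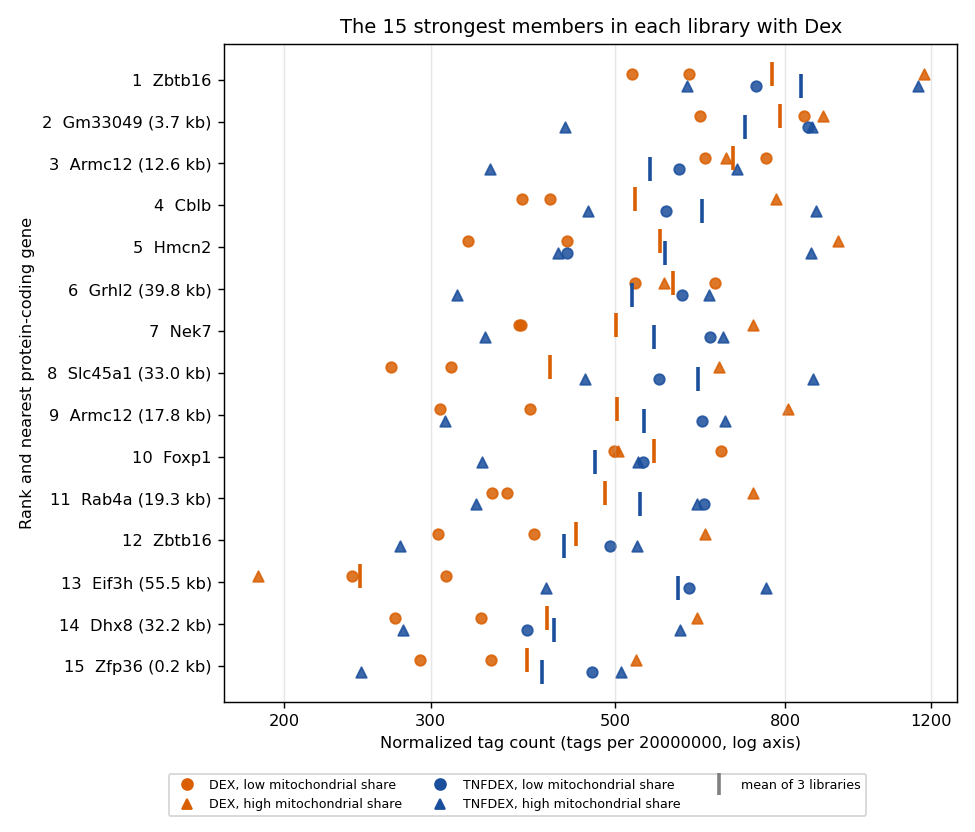
Normalized tag count (tags per 20000000, log axis) of the 15 strongest members in each of the 6 Dex libraries, labelled by rank and nearest protein-coding gene with its distance. Orange symbols are DEX and blue are TNFDEX, triangles are libraries with a high mitochondrial share, and vertical ticks are means of 3 libraries. In these deposited values, before scaling between libraries, the groups overlap at 14 of the 15 and part only at the member nearest Eif3h.

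Of the glucocorticoid response list, 11 of 32 genes (34.4%) had a member within 50 kb and 9 of them within 10 kb, beside 1.83% (401 of 21900) of all protein-coding genes. The list was compiled from known targets of GR with earlier results of these data known, so the count describes the members and is not independent evidence. The 11 were Zbtb16, Fkbp5, Per1, Per2, Sgk1, Zfp36, Ddit4, Cdkn1a, Nfkbia, Igfbp1 and Lpin1, and Errfi1 and Cebpb followed at 53.6 and 87.0 kb. A region called in all 6 Dex libraries, member or not, lay within 50 kb of 25 of the 32, beside 18.4% of all genes.

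Among genes that brake growth or division, the member inside Cdkn1a (chr17:29094622-29094799), which encodes the cell cycle inhibitor p21, had 271, 321 and 425 in DEX 1 to 3 and 348, 202 and 396 in TNFDEX 1 to 3. Its groups overlapped in these deposited values, before scaling between libraries. Ddit4, an inhibitor of mTORC1 signalling, had 3 members at 22.4 to 28.2 kb. Of these, chr10:59921304-59921485 on one side averaged 308, and chr10:59979254-59979441 and chr10:59974164-59974363 on the other averaged 182 and 149.6. The last had 175.5, 179 and 158 with Dex and 155, 81.7 and 149 with TNF plus Dex, so every TNFDEX value was below every DEX value. Sgk1, a kinase induced by corticosteroids, had a member at 4.89 kb with 64.4, 86.7 and 203 in DEX 1 to 3 and 131, 102 and 198 in TNFDEX 1 to 3. Its peak centres lay up to 102 bp apart between libraries, the widest range of any member.

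Clock genes with a member within 50 kb were 3 of 21 (14.3%), all of the repressor complex of the clock. The Per1 member (chr11:69096990-69097173) had 297.5, 398 and 336 in DEX 1 to 3 and 338, 179.9 and 369.6 in TNFDEX 1 to 3. The Per2 member (chr1:91436395-91436584) had 132, 149.9 and 145 with Dex and 126.5, 67.3 and 135 with TNF plus Dex, and the Cry2 member (chr2:92432791-92432970) averaged 134. In all 3 genes TNFDEX 2 was the lowest library, which is also the library with the lowest TMM factor and the fewest peaks of the 6.

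Among metabolic genes of the liver, the member inside Lpin1 (chr12:16618538-16618728), which encodes a phosphatidate phosphatase of lipid synthesis, averaged 388, with 249, 274 and 516 in DEX 1 to 3 and 395, 301 and 589.6 in TNFDEX 1 to 3. Ppara and Pparg, nuclear receptors of lipid metabolism, had a member inside each, at 184 and 102. Of 20 lipid genes these 3 (15%) were near a member, and of 25 genes of amino acid, urea and glucose metabolism 2 (8%) were, Ass1 and the amino acid transporter gene Slc38a4, whose member averaged 129.6. The list of insulin and growth genes had 4 of 23 (17.4%), namely Sgk1, Ddit4, Igfbp1 and Igfbp3, the last pair at 41.2 and 49.5 kb from a member inside Adcy1 that averaged 122.

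Hepatocyte identity genes near a member were 5 of 23 (21.7%). They were Hnf4a, a master regulator of hepatocytes, with a member at 23.2 kb and nearest to Ttpal (208.7, 222.8 and 475.2 in DEX 1 to 3 and 351, 189 and 427 in TNFDEX 1 to 3), Prox1 at 11.04 kb, Gata6 at 36.3 kb, and the keratin genes Krt8 and Krt18 beside a shared member. Survival genes near a member were 2 of 16, Bcl2l1 and Pmaip1. Bcl2l1, whose main product BCL-XL protects from apoptosis, held 2 members that averaged 371 and 296. Between them lay a region of 732 (chr2:152806153-152806358) that would be among the 3 strongest but had a peak of 16.7 in TNF 1.

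Of genes that answer to TNF, 1 of 31 NF-kB and TNF targets (3.23%) and 2 of 21 AP-1 and immediate early genes (9.52%, Myc and Maff) had a member within 50 kb. The NF-kB target was Nfkbia, which encodes the inhibitor IkBα and is also induced by glucocorticoids, and its member (chr12:55491890-55492095) had 171, 205 and 162 in DEX 1 to 3 and 248, 63 and 179 in TNFDEX 1 to 3. In these deposited values TNFDEX 1 was the highest and TNFDEX 2 the lowest, on either side of all DEX values. They also had the highest and the lowest scaling factor (1.48 and 0.643), so this order is that of unscaled levels only. Acute phase genes near a member were 2 of 26. They were Lbp, which encodes lipopolysaccharide-binding protein (148, 189 and 339.5 with Dex, 281, 208 and 382 with TNF plus Dex), and Il6ra, an interleukin-6 receptor subunit gene (mean 108). Of markers of other cell types, 1 of 12 macrophage genes (Cx3cr1, at 37.4 kb), 0 of 13 stromal and endothelial genes and 0 of 12 neuronal genes had a member within 50 kb. Binding near a gene does not measure its expression, so these counts do not check the cell type.

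**Figure D2:**
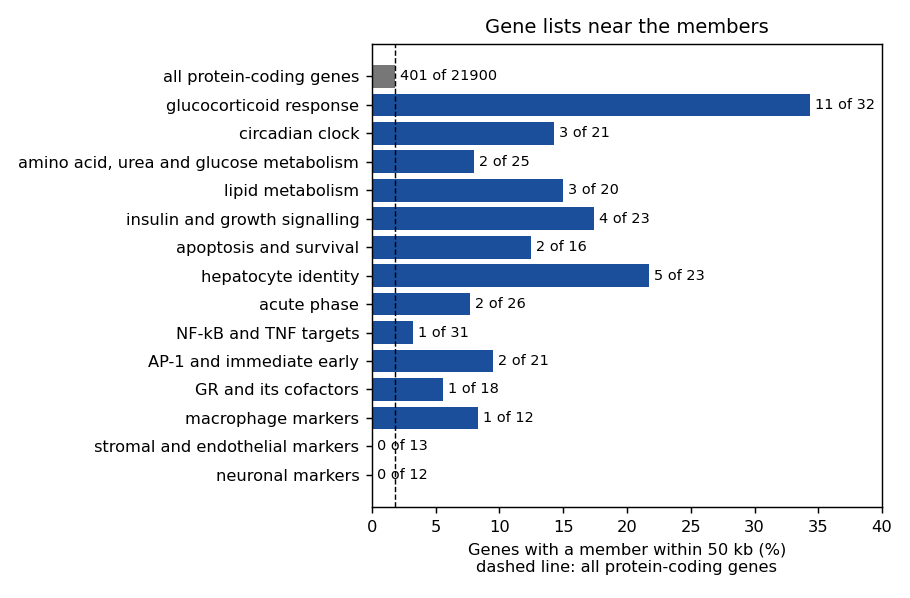
Percent of the genes of each list with at least 1 member within 50 kb (bars, with the counts beside them), with all protein-coding genes as the grey bar and dashed line at 1.83%. The glucocorticoid response list reached 34.4%, and the stromal and neuronal lists were at 0.

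After scaling, most members differed by less than 0.5 in log2 between TNF plus Dex and Dex alone. The log2 difference TNFDEX minus DEX, after TMM scaling (factors from trimmed means of the log ratios between libraries), had a median of -0.07 over the members (quartiles -0.26 and 0.14) and of -0.01 over all 4023 regions tested. The factors came from these same regions, so a median near 0 over all of them is set by the scaling. The difference lay within 0.5 of 0 for 225 members (87.9%), beside 85.4% of all regions, and reached from -0.79 to 1.99. These shares were 73.4% and 69.4% without DEX 3, and 78.1% and 71.9% without TNFDEX 1. With any other library left out, the member share was 87.5% to 92.6%. In limma with Benjamini-Hochberg adjustment over all 4023 regions, 1 region was higher with TNF plus Dex (0.0249%) and 0 lower at 0.05, and of the members 0 were higher and 0 lower. At an unadjusted p under 0.05 there were 12 members 4.69% beside 6.39% of all regions. Of them 9 were higher and 3 lower, beside 4.9% and 1.49% of all regions in these directions. The test is coarse. On simulated data with independent noise in each library and 200 changed regions, it recovered 29.5% of 2-fold and 99% of 4-fold changes. The simulation did not hold the 2 mitochondrial sets of the real libraries, so these rates need not apply to them. A small change of many members was not detectable at single regions, and a common shift was not simulated. With library totals as deposited, every log2 difference was 0.15 higher, so that the median of all regions was 0.14 and that of the members 0.08. Positive differences numbered 98 members after TMM and 155 with library totals, and 57 (22.3%) changed sign. With the mitochondrial set as a term, the member median was -0.15, beside -0.02 over all regions. At an unadjusted p under 0.05 in that limma fit, 12 of 256 members were higher and 14 lower, beside 355 and 195 of 4023 regions.

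Because the rule averages over both groups, a member can pass it through only 1 of them: 37 members had a DEX mean under 100, 2 a TNFDEX mean under 100, and 217 reached 100 in both. Differences at the 39 are in part set by that choice, and those inside Ifitm2 and Ppara, described next, are among the 37.

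The largest difference was at the member inside Ifitm2 (chr7:140956475-140956668), which belongs to a family of interferon-induced membrane proteins that restrict viral entry. Its level was 33.2, 42.3 and 47.4 in DEX 1 to 3 and 189, 144 and 209.7 in TNFDEX 1 to 3, or 41.0 ± 7.19 against 181 ± 33.4 (SD, n = 3 each). The groups did not overlap, and in the deposited values this member had the smallest spread within groups of the 256. The log2 difference was 1.99 (SE 0.26), with an adjusted p of 0.0545 in limma, and 1.92 with an adjusted p of 0.00463 when the mitochondrial set was a term. The difference was there within both sets, 189 against 33.2 and 42.3 in the low set and 144 and 209.7 against 47.4 in the high set. It was the single member with a DEX mean under 50.

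The member inside Ppara (chr15:85776795-85777009), which encodes a receptor that drives fatty acid oxidation in fasting, followed with 52.5, 76.5 and 128 in DEX 1 to 3 and 281, 213.5 and 354 in TNFDEX 1 to 3. All TNFDEX values exceeded all DEX values, and within sets they were 281 against 52.5 and 76.5, and 213.5 and 354 against 128. Its log2 difference was 1.64 (SE 0.28), with an adjusted p of 0.103 in limma, and 1.44 with an adjusted p of 0.00642 with the mitochondrial set as a term. With that term 28 of the 4023 regions were higher (0.696%) and 1 lower (0.0249%), 0.721% in all, and of the members 2 were higher, these 2, and 0 lower. Both passed the rule through their TNFDEX level, so that count describes the members and supports nothing about them as a set.

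A further 3 members had every TNFDEX library above every DEX library in the deposited values, which makes 5 of 256 (1.95%) beside 2.59% of all regions. After TMM the same pattern held at 13 members (5.08%) beside 7.41% of all regions. At the member 55.5 kb from Eif3h (chr15:51730843-51731025) the levels were 241, 312.5 and 186 in DEX 1 to 3 and 614, 413 and 759 in TNFDEX 1 to 3, a log2 difference of 1.11 (SE 0.34) that did not pass in limma (adjusted p 0.52, and 0.113 with the mitochondrial set as a term). This member also had the most input tags of all members, 15 in the peak on the authors' scale, where the median member had 3.5. The other 2 lay nearest Med13l (141.5 ± 24.8 against 273 ± 95.7, SD, n = 3 each) and Coa7 (119 ± 27.7 against 217 ± 56.7), with log2 differences of 0.76 and 0.70, and 0.65 and 0.64 with the mitochondrial term. Neither passed in limma, with adjusted p of 0.651 and 0.56, and 0.258 and 0.19 with the term. The largest other differences, inside Sdk2 (1.17) and by the taste receptor gene Tas2r126 (1.11), belonged to members at which DEX 3 lay above DEX 1 and DEX 2, and the groups overlapped. With the mitochondrial term these differences were 0.76 and 0.70 and did not pass in limma (adjusted p 0.122 and 0.141).

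No member was lower with TNF plus Dex by the test. The largest negative log2 differences were at members inside or nearest Fam220a (-0.79), Tcf4 (-0.78), Gm41291 (-0.75), Rfx8 (-0.73) and Nkd1 (-0.66), each with an adjusted p of 0.765 in limma. With the mitochondrial term they were -0.48, -0.40, -0.41, -0.50 and -0.38 in the same order, and none passed (adjusted p 0.316 to 0.46 in limma). At the Fam220a member the levels were 357, 439.5 and 256 with Dex and 420.5, 118 and 213 with TNF plus Dex, so that all 3 libraries with a high mitochondrial share lay below the 3 with a low share. The same order of the 2 sets held at the other 4. It is no mark of the members, since in the deposited values it held at 10 of 256 (3.91%) beside 6.34% of all regions. After TMM it held at 9.77% of the members beside 20.9% of all regions. The Ddit4 member above was in the deposited values the only 1 of 256 (0.391%) with every TNFDEX library below every DEX library, beside 0.124% of all regions. After TMM this pattern held at 30 members (11.7%) beside 5.49% of all regions, so the balance of the 2 directions among the members turns with the scaling. The log2 difference of the Ddit4 member was -0.62 (SE 0.27, adjusted p 0.765 in limma), and -0.54 with the mitochondrial term (adjusted p 0.354 in limma).

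**Figure D3:**
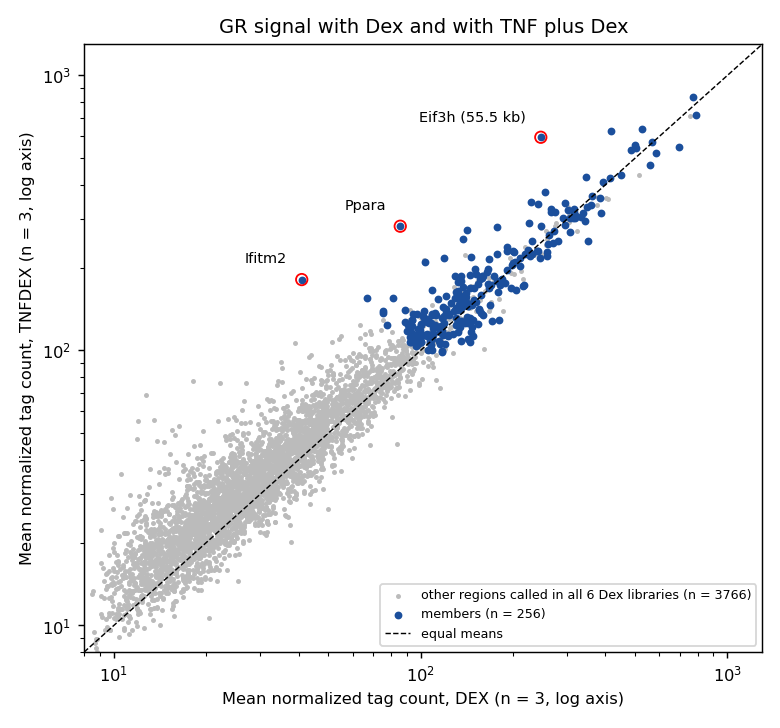
Mean normalized tag count with Dex (horizontal) and with TNF plus Dex (vertical), both on log axes and each over 3 libraries, for the 256 members (blue) and the other 3766 nuclear regions called in all 6 Dex libraries (grey). Members follow the line of equal means, and the circled members inside Ifitm2 and Ppara and nearest Eif3h lie above it.

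After TMM scaling, members differed more often between the 2 sets of libraries than between the treatments, and so did the regions at large. In the limma fit with both terms, 26.8% of all regions passed for the set and 0.721% for the treatment. With treatment in the limma fit, 62 members were higher and 12 lower in the libraries with a high mitochondrial share (74 of 256, 28.9%), beside 13.8% higher and 13% lower of all regions, 26.8% in all. The median log2 difference of the members was 0.20, against -0.02 over all regions. With library totals in place of TMM, 0 members were higher and 0 lower, with 12 at an unadjusted p under 0.05. The differences themselves moved by 0.10, to a median of 0.10 and a largest value of 1.72, while the median SE went from 0.20 to 0.57. Leaving out DEX 2, TNFDEX 1 or TNFDEX 3 cut the 62 to 40, 34 or 33. Without TNFDEX 1 the lower members rose to 18 and the member median fell to 0.08, whereas that median was 0.17 to 0.31 with any other library left out.

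The largest difference between the sets was inside Lrrc20 (chr10:61544574-61544752), with 37.7, 43.3 and 74.2 in the low set (DEX 1, DEX 2 and TNFDEX 1) and 249, 98.5 and 176 in the high set (DEX 3, TNFDEX 2 and TNFDEX 3). Its log2 difference was 1.82 (SE 0.20), with an adjusted p of 0.000759 in limma. In the other direction the largest difference, -1.13 (SE 0.20, adjusted p 0.00274 in limma), was inside Tcf4, with 111, 144 and 197 in the low set and 97.4, 32.8 and 65 in the high set. The member nearest Gm41291 (chr15:34027376-34027557) came next, with 396, 447 and 606 in the low set and 321, 117 and 227 in the high set, a log2 difference of -1.04 (adjusted p 0.00366 in limma). The sets did not overlap at these 3 members, which were picked for the largest differences, so that is in part set by the choice. In the deposited values the high set lay wholly above the low set at 15 members (5.86%) beside 3.75% of all regions. It lay wholly below at 10 (3.91%) beside 6.34%. After TMM these shares were 34.4% beside 20.2%, and 9.77% beside 20.9%. Among the 15 strongest members, those at Zbtb16 (the first), Cblb, Hmcn2, Slc45a1 and Dhx8 were higher in the high set at 0.05 in limma, and none was lower. What the sets stand for is not given in the labels and was not tested.

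**Figure D4:**
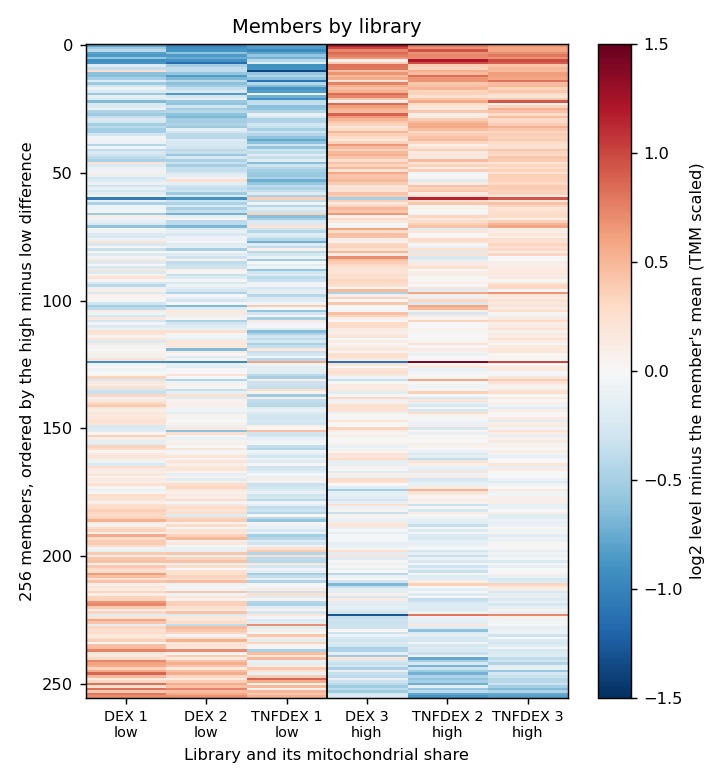
Colour shows the log2 level of each of the 256 members (rows) in each Dex library (columns) minus the member's mean, after TMM scaling, with rows ordered by the high minus low mitochondrial difference. The columns to the left and right of the line are the low and high sets. Because the rows are sorted by that difference, the colour change at the line in the top and bottom rows follows from the sorting.

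Peaks at members had a high focus ratio and kept their centre between libraries. HOMER's focus ratio, the fraction of a peak's tags that lie on the side of its centre where their strand should be, had a median over members of 0.893 to 0.903 in the 6 Dex libraries, beside 0.825 to 0.851 at weaker strictly Dex-dependent regions. It was 0.858 to 0.872 at the 120 equally strong regions that also had a peak in an NI or TNF library, below the members in 6 of 6 libraries, although the median level of these regions (134) was near that of the members (145). The peak centres of a member lay within a median range of 18 bp over the 6 libraries and within 20 bp for 156 members (60.9%), beside 24 bp at the equally strong regions, 39 bp at the weaker ones and 12.3% within 20 bp over all other regions. A centre is placed more firmly where more tags were counted, so only the equally strong regions are a like comparison, and no test was made on regions chosen by their calls. The authors' fold of the peak over its surroundings had a median of 36.4 to 54.1 at members and 29.99 to 44.8 at the equally strong regions. Their fold over input went the other way, 35.5 to 68.8 at members and 37.8 to 78.8 at the equally strong regions, which were higher in 6 of 6 libraries.

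**Figure D5:**
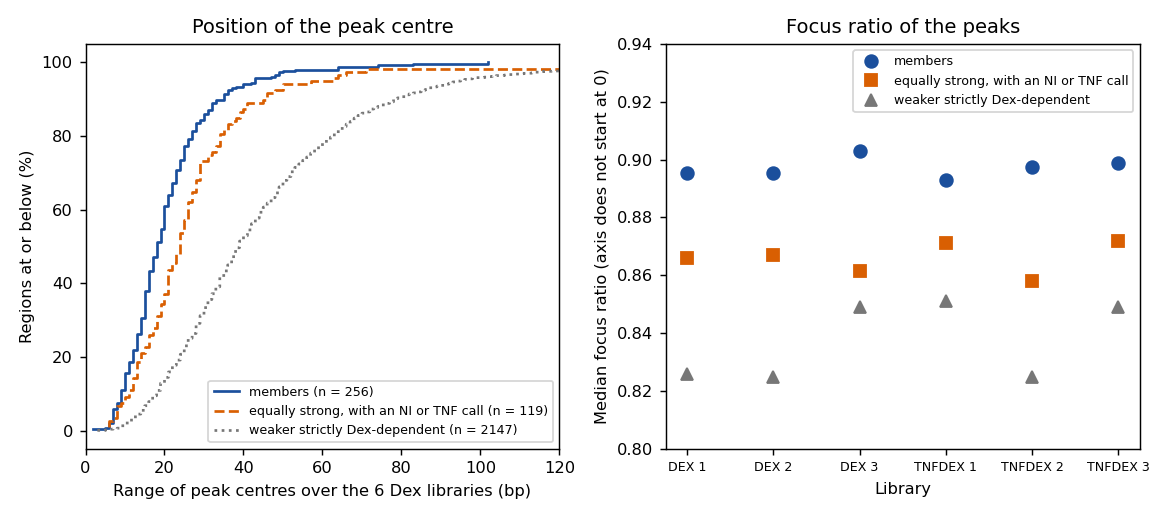
Left, cumulative percent of regions by the range of their peak centres over the 6 Dex libraries in bp (the horizontal axis stops at 120); right, median focus ratio in each library on an axis that does not start at 0. Members (blue) have the smallest centre ranges, with a median of 18 bp, and the highest focus ratio in all 6 libraries.

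The absence of a peak without Dex depended on which libraries were looked at. Of 119 equally strong nuclear regions that had such a peak, 44 had it in 1 library only, for 36 of them TNF 1, the library with the most peaks (8943) of the 5 without Dex. Where called without Dex, these regions had a median level of 17.2, against 134 with Dex. A region without a peak has an unknown level, not 0, and the lowest level called in any library was 5.4 to 6.6. A peak of an NI or TNF library lay within 200 bp of 12 members without touching them, within 1 kb of 29 (11.3%), and within 50 kb of 199 (77.7%). The same shares were not computed for other regions, so these counts have no baseline and say nothing particular about the members.

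Most members lay away from gene ends. Only 13 (5.08%) were within 1 kb of either end of a protein-coding gene of RefSeq GRCm38.p6, close to the 4.12% of other regions called in all 6 Dex libraries and below the 13.03% of all nuclear regions. Among the 13 were the members by Zfp36 (0.174 kb), Lbp (0.349 kb), Mknk2 and Nfkbia. Inside or partly inside a gene lay 102 members (39.8%) and 41.6% of the other regions, and exons and introns were not used here. Members more than 50 kb from a gene were 51 (19.9%), beside 29.0% of the other regions. The median distance to a gene end was 22.2 kb, beside 36.2 kb.

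Members formed 235 loci when those within 50 kb of each other were joined, and 220 stood alone. Besides the loci at Fkbp5 and Zbtb16, 3 members lay inside Nek7 over 35.6 kb, with means of 529, 229 and 146. The fourth locus of 3 or more spanned 53.0 kb of chromosome 2 between Cebpb and Ptpn1, 87.0 kb from the nearest protein-coding gene at its closest. It starts with the member printed above for Gm32287, which had 168, 190.2 and 367 in DEX 1 to 3 and 181, 268 and 569.5 in TNFDEX 1 to 3, with DEX 3 and TNFDEX 3 highest in these deposited values. The member printed for Gm6093 averaged 117. Another region called in all 6 Dex libraries lay within 50 kb of 134 members (52.3%), beside 41.5% of the other regions.

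Chromosome 15 held 29 members (11.3%) but 4.70% of the regions called in all 6 Dex libraries, whereas chromosome 14 held 0 of its 116 such regions. On chromosome 15, 15.3% of these regions were members. The mean number of input tags at regions called in all 6 Dex libraries, on the authors' scale, was 3.81 on chromosome 15 and 0.933 to 2.65 on the other chromosomes, and 1.31 on chromosome 14. At the members it was 6.21 on chromosome 15 and 3.97 elsewhere, while their median level was 125 against 146. The part of the input in the count of members per chromosome was not tested.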

How the data were processed

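GR ChIP-seq peak lists of 11 libraries were used; the input sample was known only through the ratios in them. The submitters' processing notes name the build mm10 and the tools HOMER 4.6, Bowtie 1.0.0 and CASAVA 1.8. Per the file headers, peaks were called per library against the input with a false discovery rate of 0.001 and 4-fold or more over input and over the surrounding 10000 bp, with a Poisson p-value of 0.0001. The deposited signal is the normalized tag count per 20000000 tags, and input tags are a deposited signal on the same peaks. The deposited fraction is the focus ratio; per the file headers, folds are ratios of tags, and the deposited score and p-value columns were only read as HOMER's own values for single peaks.

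Peaks sharing at least 1 bp were merged, and the strongest peak per library gave a region's level. Each value was counted around that library's own peak centre, so no count model was run. The 4023 regions called in all 6 Dex libraries were tested with limma 3.58.1 (R 4.3.3) on log2(normalized tag count), without pseudocount, after TMM scaling (trimming 30% of ratios and 5% of levels), with Benjamini-Hochberg adjustment at 0.05, and the fit was tested on simulated data. Dex dependence and level chose the members and were not tested. The coefficient of the mitochondrial set was added after the data were seen. Members and gene lists were chosen with earlier results of these data known. Named members are the 15 strongest, all that passed, the 5 largest differences each way, the 3 nearest the threshold on each side, the extremes of spread within groups (deposited values), those within 50 kb of glucocorticoid response genes, up to 4 per other list, and clusters of 3 or more; Lrrc20, Gm41291, Med13l, Coa7 and Mknk2 were also named after their values were seen. Alternatives were other scalings, thresholds, merging, priors, a pseudocount of 1, a replicate block and leaving out each library. The other steps ran in Python 3.11.15 with pandas 2.3.3, numpy 2.4.6, matplotlib 3.10.9 and scipy 1.17.1.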

Additional observations from a re-analysis of the deposited data

How the results depend on the processing

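The number of members was 685 at a mean of at least 50, 70 at 200 and 85 when every Dex library had to reach 100, and lay between 230 and 292 when a library was left out; 300 regions passed when a call in 1 NI or TNF library was allowed. Of all 4023 regions, the number higher with TNF plus Dex was 1, and it was 0 with library totals, 0 with scaling by the median, 0 of 3156 at a mean of at least 20, 2 with a trended prior, 2 with a pseudocount of 1 and 28 with the mitochondrial set as a term, which also gave 1 lower; leaving out a library gave 0 to 5. Of the members, 0 were higher, 1 with the trended prior, 1 with the pseudocount of 1, 2 with the mitochondrial term, and 0 to 1 when a library was left out (1 without TNFDEX 1, the Ifitm2 member, adjusted p 0.0284 in limma). Over its 14 alternatives the Ifitm2 member had a log2 difference of 1.79 to 2.20 with an adjusted p of 0.000466 to 0.382 in limma, and the Ppara member 1.44 to 1.87 with 0.0044 to 0.712. With the replicate number as a block, 15 regions and 2 members, again Ifitm2 and Ppara, were higher. Whether libraries of the same number belong together cannot be told from these values. Deviations from the group means correlated at 0.37, -0.37 and 0.58 between libraries of the same number, and DEX 2 correlated best with TNFDEX 1. In both Dex groups number 1 was in the low and number 3 in the high mitochondrial set, while DEX 2 was low and TNFDEX 2 high. Pairing and set therefore cannot be told apart here. Between the mitochondrial sets, 62 members were higher and 12 lower with TMM, 0 and 0 with library totals, and 33 to 53 and 8 to 18 when a library was left out. Members within 5 kb of a gene end were 44, against 13 within 1 kb. The median log2 difference of the members was -0.07, turned to 0.08 with library totals, and lay between -0.15 and 0.03 when a library was left out. None of the 10 members with the largest differences changed sign. Motif windows around peak centres were not run, for want of genome sequence. Each group had 3 libraries, of which 1 of DEX and 2 of TNFDEX carry a high mitochondrial share. In the simulation, which did not hold these sets, even 2-fold changes were mostly missed (29.5% recovered), and smaller ones were not simulated.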

Other observations

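Members also lay by genes that no list covered, of which 3 are given here, chosen after their values were seen. A member inside Hpgd, which encodes the enzyme that inactivates prostaglandins, averaged 364 with 244, 271 and 574 in DEX 1 to 3 and 340.5, 256 and 497 in TNFDEX 1 to 3. A member inside Lifr, the gene of the leukaemia inhibitory factor receptor, averaged 107, with 49.1, 59.1 and 118 with Dex and 188, 93.9 and 134.5 with TNF plus Dex; its log2 difference of 0.78 did not pass in limma (adjusted p 0.56), and was 0.68 with the mitochondrial set as a term (adjusted p 0.209). A member 44.2 kb from Akr1d1, a reductase gene of bile acid and steroid hormone metabolism, had 124, 164 and 154 with Dex and 138.5, 68 and 131 with TNF plus Dex, a log2 difference of -0.60 that did not pass either (adjusted p 0.691 in limma), and was -0.56 with that term (adjusted p 0.261 in limma).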
